A study of Mus musculus with 12 samples.

Results

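A group of 6 mouse genes shares a property of the peak calls from a chromatin immunoprecipitation experiment on MACF1 knockdown and control cells. A region in each gene, or nearest to it, was called as a peak in every knockdown list and in no control list. The genes are Pacsin1, Prrt4, Rims2, Lrig3, Zfp365 and Pdia4, 6 of 21887 protein-coding genes, and they were chosen by these peak calls. The target of the immunoprecipitation is not named here. MC3T3-E1, a mouse osteoblast line, was used throughout, and the submitters label every sample as osteoblast. MACF1 knockdown cells were set against control cells, with 3 immunoprecipitates from knockdown cells, 3 from control cells and an input for each (12 samples in all). The agent used for the knockdown and the nature of the control are not given in the sources used here, and neither are separate cultures, so p-values measure only the spread between these libraries. Libraries are named knockdown 1, 2 and size3 and control 1, 2 and size3 after their titles.

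MACF1 is a very large cytoskeletal protein that binds both actin filaments and microtubules and takes part in Wnt signalling. In osteoblasts it is studied for its part in bone formation. The 6 genes have no common pathway. Pacsin1 (syndapin) couples endocytosis to actin in neurons, Rims2 is a scaffold of the presynaptic active zone, Zfp365 encodes a zinc finger protein studied in neurons, Lrig3 encodes a membrane protein with leucine-rich repeats, Pdia4 is a disulfide isomerase of the endoplasmic reticulum, and Prrt4 encodes a proline-rich transmembrane protein.

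Depth differed between the lists. After duplicate removal the knockdown immunoprecipitates held 18454330, 5575205 and 8175173 reads for labels 1, 2 and size3, and the control immunoprecipitates 26196138, 33085606 and 10698067. The knockdown lists held 21398, 4513 and 17592 peaks and the control lists 772, 198 and 2196. The redundant rate of the knockdown immunoprecipitates was 0.51, 0.65 and 0.02, and that of the control ones 0.25, 0.16 and 0.01. Each list holds only peaks that passed a p cutoff of 1e-05 against the library's own input. Read numbers of the control libraries at the 6 regions were not analysed here, so a region that no control list holds is one where no control peak passed that cutoff. Immunoprecipitated DNA does not measure Macf1 expression, and the knockdown itself was not checked.

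All peaks were merged where they touched, which gave 44201 regions. Of these, 7 (0.0158%) were called in the 3 knockdown lists and no control list, and 6 of the 7 belong to the genes described here. No region was called in the 3 knockdown lists and in a control list as well. The control lists were short, at 772, 198 and 2196 peaks for control 1, 2 and size3. Few of the 44201 regions could hold a control peak, so nothing is read from this absence. Just outside the rule, 1929 regions were called in knockdown 1 and knockdown size3 alone. For 3 of those a peak of knockdown 2 lay within 500 bp: at 104 bp in Tbc1d12, at 224 bp in Hipk3 and at 364 bp in Med6. The nearest control peak to a member region was 59.9 kb away for Pdia4, 78.4 kb for Pacsin1, 108 kb for Prrt4, 168 kb for Lrig3, 202 kb for Zfp365 and 988 kb for Rims2. These distances describe the choice and were not tested.

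The 3 peaks coincided at only some of the genes. At Pdia4, Zfp365 and Lrig3 a stretch was common to the 3 knockdown peaks, of 515 bp, 255 bp and 68 bp. At Pacsin1, Prrt4 and Rims2 no base was common to the 3 peaks, and the region exists because the peak of 1 library reached across a gap between the other 2. These gaps measured 1370 bp at Pacsin1, 1216 bp at Prrt4 and 487 bp at Rims2. The map of the knockdown peaks by distance from the region's centre shows both kinds.

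**Figure D1:**
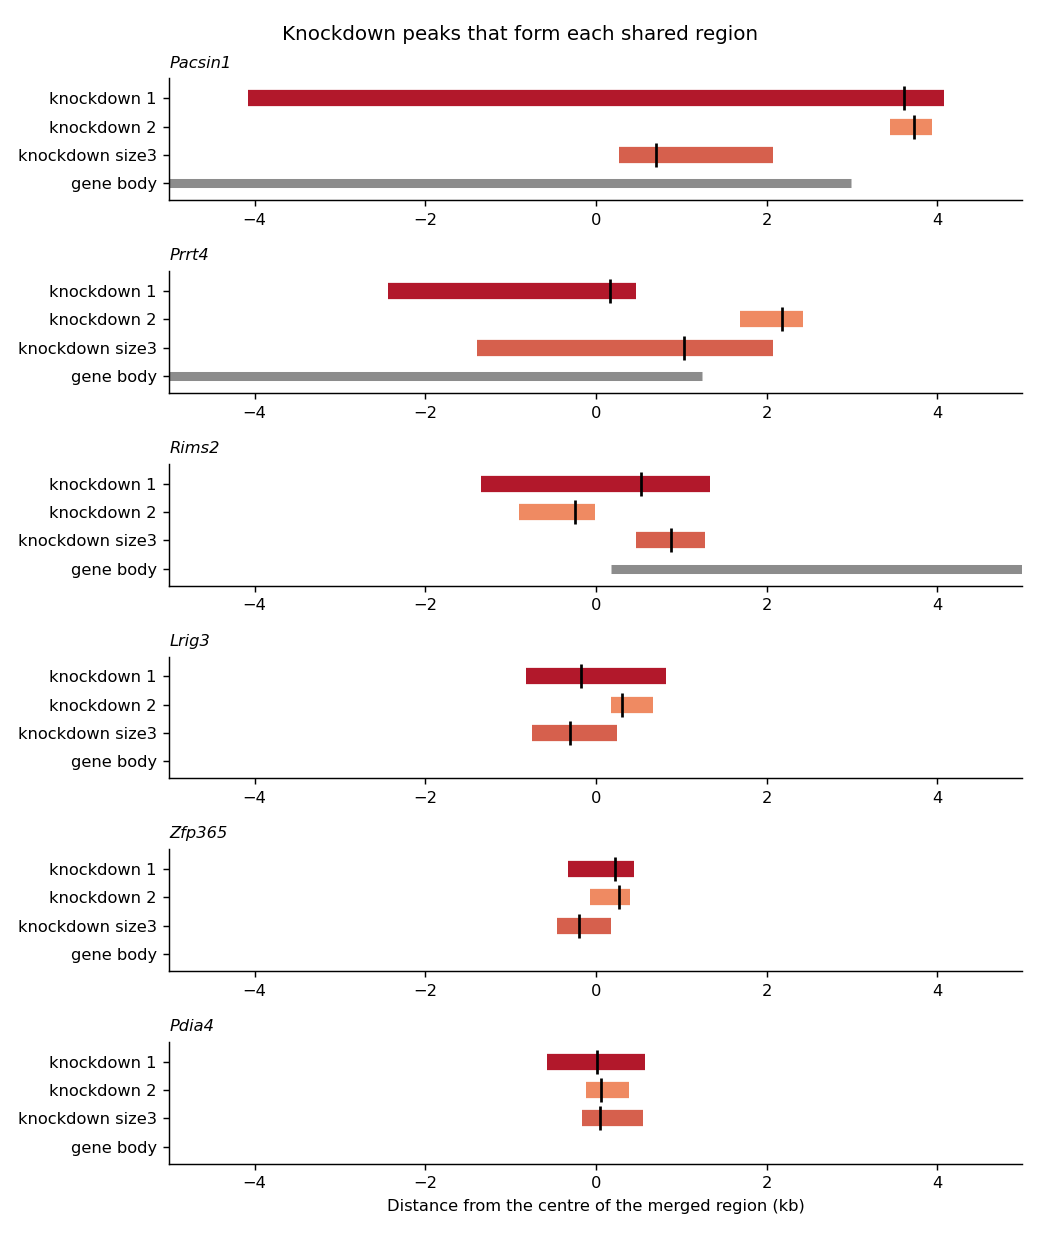
Position of the 3 knockdown peaks in each merged region, as distance in kb from its centre; bars are peaks, black ticks their summits and grey bars the gene body where it comes within 5 kb. At Pdia4 the 3 summits lie within 47 bp of each other, while at Pacsin1, Prrt4 and Rims2 no base is common to the 3 bars.

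Prrt4 had its region at the start of the gene. The gene spans chr6:29169230-29179584 (GRCm38) on the minus strand, so its start is the upper end, and the region ran over 4868 bp at chr6:29175906-29180773. In knockdown 1 the peak held 239 reads over 2908 bp, with a fold enrichment over input of 3.44, and lay wholly inside the gene with its summit 1082 bp past the start. The peak of knockdown size3 held 117 reads over 3470 bp at a fold of 4.54, covered the start and had its summit 216 bp past it. Knockdown 2 had 26 reads over 744 bp at a fold of 6.87, with the summit 936 bp before the start, outside the gene. Thus the knockdown 1 and knockdown 2 peaks stood on either side of the start, 1216 bp apart, and knockdown size3 joined them. The promoter of Prrt4 is printed because it is the only promoter of a member that a member region covered, among the 5 members matched to a promoter entry in RefSeq (GRCm38.p6), which are all but Rims2. It runs from 250 bases before to 50 bases after the start, at chr6:29179535-29179834 on the minus strand. Capitals mark TCCCGC, a core of E2F sites, and CAGCTG, a form of the E-box that helix-loop-helix factors bind.
Prrt4: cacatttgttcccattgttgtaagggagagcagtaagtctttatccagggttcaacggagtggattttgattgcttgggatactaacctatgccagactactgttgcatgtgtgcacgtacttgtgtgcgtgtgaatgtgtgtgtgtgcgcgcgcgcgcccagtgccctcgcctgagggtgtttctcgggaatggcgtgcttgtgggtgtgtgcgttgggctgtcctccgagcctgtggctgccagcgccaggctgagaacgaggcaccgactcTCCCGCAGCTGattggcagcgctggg

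The letters in capitals form 1 run in Prrt4 because TCCCGC, from position 25 after the start, and CAGCTG, from position 30, share a base. On either strand, TCCCGC stood in 25.8% and CAGCTG in 15.6% of 21263 promoters of protein-coding genes of the same length, and both with a shared base in 0.0894%. Such a match is a string of letters, not a site. The Prrt4 promoter held 57.3% G and C and 18 CpG dinucleotides, near the medians of 56.3% and 13 over all promoters. A knockdown size3 peak lay on 7.55% of all promoters and a knockdown 1 peak on 16.0%, and among the 5 matched members 1 promoter lay under a peak in each list (Prrt4 in knockdown size3, Pacsin1 in knockdown 1). The Prrt4 peak is part of the region by which the gene was chosen, so nothing is read from that count.

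Pacsin1 carried its region at the other end of the gene. It lies on the plus strand at chr17:27655591-27711118, and its RefSeq promoter entry puts a start at 27685239. The region spanned 8165 bp at chr17:27704046-27712210, which is the whole peak of knockdown 1, with 473 reads at a fold of 5.40 and a summit 623 bp beyond the end of the gene. Knockdown 2 had a narrow peak of 500 bp with 33 reads at a fold of 16.9, and its summit was 116 bp from that of knockdown 1. Knockdown size3 had 49 reads over 1803 bp at a fold of 3.94, inside the gene and 1370 bp short of the knockdown 2 peak. The next protein-coding gene, Spdef, an ETS-family factor of epithelial cells, began 2.24 kb past the region.

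Outside its region, Pacsin1 had a peak at its promoter in knockdown 1, which is why that promoter is shown. The peak ran over 9292 bp at chr17:27682497-27691788 with 631 reads, a fold of 3.42 and a summit 73 bp past the start. No other library had a peak on it. Capitals mark GGGCGG, the GC box that Sp and KLF factors bind, on either strand. The promoter lies at chr17:27684989-27685288 on the plus strand.
Pacsin1: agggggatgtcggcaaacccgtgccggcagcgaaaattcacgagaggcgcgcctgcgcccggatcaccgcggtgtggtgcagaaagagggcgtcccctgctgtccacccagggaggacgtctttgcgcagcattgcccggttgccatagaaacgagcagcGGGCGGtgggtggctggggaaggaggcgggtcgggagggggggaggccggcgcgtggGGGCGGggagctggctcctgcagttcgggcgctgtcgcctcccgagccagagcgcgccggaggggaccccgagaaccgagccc

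GC boxes stood at positions -90 and -33 relative to the Pacsin1 start, and 46.2% of all promoters held at least 1 (capitals in the sequence, neither overlapping another motif searched). At 71.7% G and C and with 33 CpG it is more GC-rich than the Prrt4 promoter. Neither TCCCGC nor CAGCTG nor CACGTG, another E-box form present in 7.84% of promoters, was found in it. The promoters of Lrig3, Zfp365 and Pdia4 lay under no peak of any list, and held 66.3%, 61.3% and 68.0% G and C with 36, 8 and 24 CpG. CACGTG was found at position -98 relative to the start of Lrig3 and -41 relative to that of Zfp365, and GGGCGG in each of these 3.

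Rims2, the longest member at 486 kb (chr15:39198286-39684372), had its region across the lower end of the gene, over 2687 bp at chr15:39196765-39199451. Knockdown 1 held 257 reads over the whole region at a fold of 2.30, lower than all but 0.014% of its list. Knockdown 2 held 27 reads over 887 bp at a fold of 5.82, entirely outside the gene, with a summit at -426 bp from its lower end. The knockdown size3 peak, with 29 reads over 801 bp at a fold of 5.88, lay entirely inside, with a summit at 704 bp from that end. The 2 smaller peaks were 487 bp apart, and each fell within the knockdown 1 peak.

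Lrig3, at chr10:125966219-126015359 on the plus strand, is the nearest protein-coding gene to a region 25.3 kb past its end, at chr10:126040697-126042331. Knockdown 1 held 118 reads over 1635 bp at a fold of 3.62 and knockdown size3 held 30 reads over 1001 bp at a fold of 12.6, with summits 125 bp apart. Knockdown 2 held 16 reads over 484 bp at a fold of 9.61, and only its first 68 bp were also in the knockdown size3 peak. After Lrig3 the nearest protein-coding gene, Slc16a7, a monocarboxylate transporter gene, was 651 kb away. The region therefore takes the name of Lrig3 by distance alone.

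Zfp365 spans chr10:67886105-67912662 on the minus strand, and its region, chr10:67920402-67921305, lay 7.74 kb before its start. It was the narrowest, at 904 bp. Knockdown 1 held 44 reads over 781 bp at a fold of 7.71. Knockdown 2 held 21 reads over 473 bp at a fold of 11.1, and its summit was 42 bp from that of knockdown 1. Knockdown size3 held 13 reads over 633 bp at a fold of 11.8, with a summit 424 bp from that of knockdown 1. With 13 reads the counting error is wide (exact Poisson 95% interval 6.92 to 22.2, which covers counting error only). Rtkn2, a rhotekin gene, was the next protein-coding gene, 58.3 kb away.

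Pdia4 had the peaks that coincided best. The gene spans chr6:47796141-47813512 on the minus strand, and the region, chr6:47777678-47778829, lay 17.3 kb past its end. Knockdown 1 held 245 reads over 1152 bp, knockdown 2 held 78 reads over 515 bp and knockdown size3 held 69 reads over 719 bp. Their summits lay 16 to 47 bp apart. The folds were 4.47, 3.98 and 4.53 for labels 1, 2 and size3, close to each other, although the lists' median folds were 4.98, 15.6 and 8.10. Scaled to depth and width, the peaks of knockdown 1, 2 and size3 held 11.5, 27.2 and 11.7 reads per kb per 1000000 reads of the library, the highest of the 6 members in each knockdown library. The other 5 members held 3.05 to 5.18 in knockdown 1, 5.46 to 11.8 in knockdown 2 and 2.51 to 4.43 in knockdown size3. These scaled values are not corrected for input. The Pdia4 folds were above only 38.4%, 0.0665% and 2.98% of peaks in the lists of knockdown 1, 2 and size3. The Pdia4 scores were above 80.9%, 12.5% and 26.5% of those peaks. Pdia4 is the nearest protein-coding gene, but Rny3, a gene of the Y RNAs that the Ro protein binds, lay 2795 bp from the region and Rny1 lay 9241 bp from it. Zfp786, a zinc finger gene, was the next protein-coding gene, 36.7 kb away.

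Within their own lists, the peaks of these regions were mostly wide and rich in reads and of low fold. Width was above the list's median for 5 of 6 members in knockdown 1, 6 of 6 in knockdown 2 and 5 of 6 in knockdown size3, and read number for the same numbers of members. Fold enrichment was above the median for 2, 1 and 2 of 6. In knockdown 2 the member peaks were 473 to 887 bp wide with 16 to 78 reads, against list medians of 359 bp and 9 reads. Zfp365 had reads below the median and a fold above that of 90.6% and 91.5% of peaks in knockdown 1 and knockdown size3. Lrig3 in knockdown size3, at 92.9%, and Pacsin1 in knockdown 1 and knockdown 2, at 59.0% and 67.3%, also had folds above the median. A wide peak has more bases with which to touch another, so a rule of overlap favours it, and these places are given as a description. The caller's false discovery rate, from swapping immunoprecipitate and input, was 1.51% to 3.46% for the 6 peaks of knockdown 1, 1.72% to 5.88% for those of knockdown size3 and 100% for all 6 of knockdown 2, where 98.4% of the whole list had that rate.

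**Figure D2:**
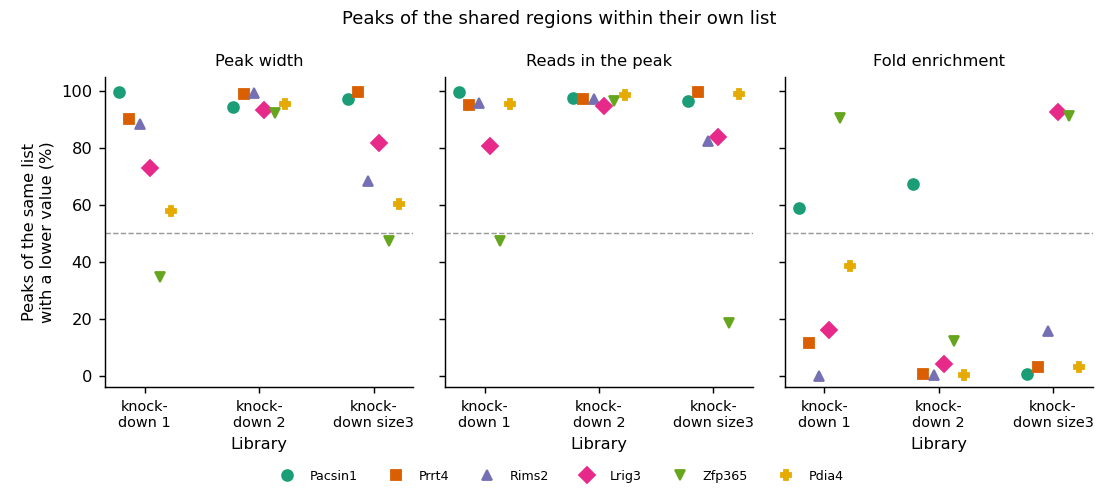
For each member region, the share of peaks of the same knockdown list (in %, vertical axis) with a lower width, read number or fold enrichment; each symbol is 1 gene and the dashed line is 50%. Knockdown 2 peaks sit at 92.3% or above for width, and 5 of its 6 at 12.1% or below for fold.

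Peaks around the regions, which the rule did not use, were examined next. They come from the same 6 lists, in which every knockdown list held more peaks than any control list. A separation of the groups in the windows is therefore no independent result. Each gene was taken with 100 kb on either side, and peaks of its region were left out. Knockdown 1, 2 and size3 had 18, 13 and 32 further peaks in the 6 windows together, and control 1, 2 and size3 had 0, 0 and 2. The groups did not overlap: 21.0 ± 9.85 peaks in knockdown and 0.667 ± 1.15 in control libraries (SD, n = 3 each), a difference of mean log2(peaks + 1) of 3.84 (exact two-sided permutation p = 0.1, the smallest that 20 assignments allow). Within a label the difference was 4.25, 3.81 and 3.46 for labels 1, 2 and size3. Over the whole lists the difference of mean log2(peaks + 1) was 4.10, and 4.79, 4.50 and 3.001 within the labels. With this pseudocount of 1 peak the windows showed a smaller gap in number than the whole lists, except within label size3. With 0.5 peaks the windows gave 4.56, above the 4.10 of the lists, so no order is read from this. The further peaks covered 47.3, 4.77 and 28.8 kb in knockdown 1, 2 and size3, against 0, 0 and 1.12 kb in control 1, 2 and size3, a difference of mean log2(bp + 100) of 6.35 (exact permutation p = 0.1). For cover of the whole lists the difference was 3.90. With a pseudocount of 1000 bp the windows gave 3.98, so no order is read from cover either. With both control 1 and control 2 at 0 the size of these differences depends on the pseudocount: it was 4.56 and 3.10 for number with 0.5 and 2 peaks, and 8.59 and 3.98 for cover with 10 and 1000 bp. Cover also moved with single libraries: the difference was 7.56 without control size3, 5.75 without control 1 or control 2, 7.33 without knockdown 2 and 5.69 without knockdown 1. With peaks of a false discovery rate of at most 5% the differences were 2.83 for number and 5.41 for cover (exact permutation p = 0.4 for both), and knockdown 2 and the control libraries then had none. With a score of at least 100 they were 1.33 and 3.44 (exact permutation p = 0.4 for both).

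**Figure D3:**
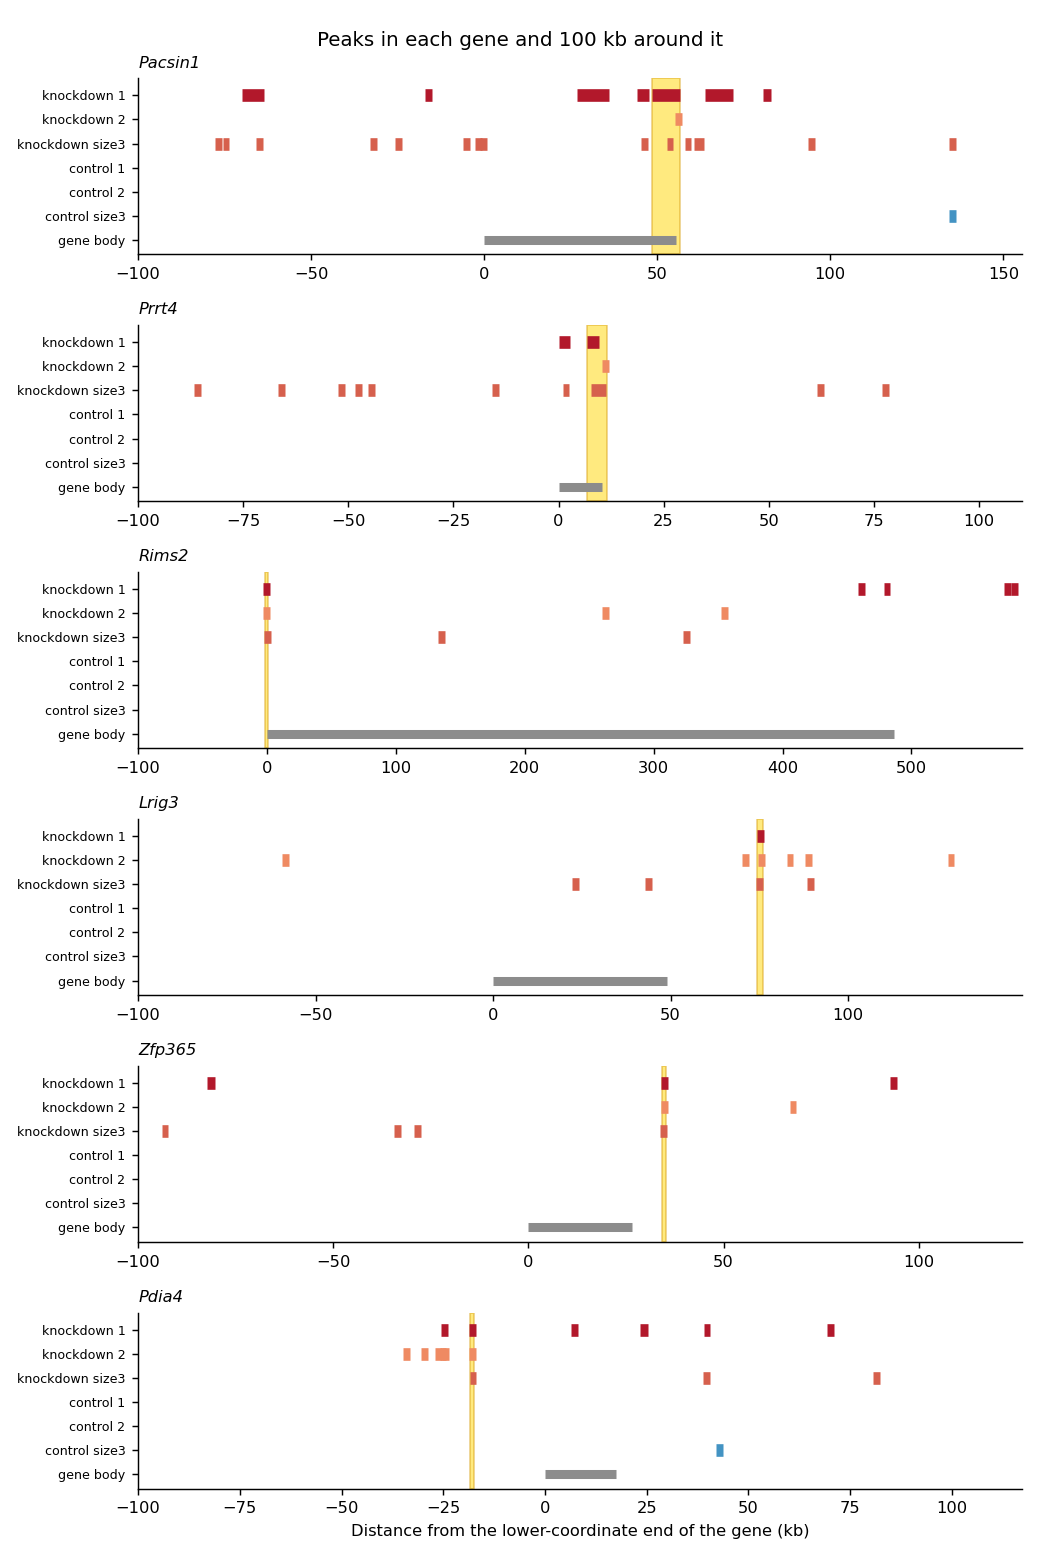
Peaks of the 6 libraries in each gene and 100 kb around it, as distance in kb from the gene's lower-coordinate end; yellow marks the shared region and grey the gene, and narrow peaks are drawn at a minimum width so as to be seen. The only control peaks are those of control size3 near Pacsin1 and Pdia4.

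Set against all genes, these windows were not uniformly rich in peaks. A further knockdown 1 peak was present in 5 of 6 windows, and 80.2% of all 21887 protein-coding genes had a knockdown 1 peak in the gene or within 100 kb. For knockdown size3 it was 6 of 6, against 74.0% of all genes, and for knockdown 2 it was 4 of 6, against 30.2%. For control 1, 2 and size3 it was 0, 0 and 2 of 6, against 4.71%, 1.01% and 21.5%. Every member was chosen by a peak in each knockdown list, so the knockdown values here cannot be taken as independent of the choice. In knockdown 2, Lrig3 and Pdia4 held 5 each of the 13 further peaks. In density, the windows held 0.976, 0.705 and 1.73 further peaks per 100 kb in knockdown 1, 2 and size3, and the mean over all genes was 1.46, 0.173 and 1.20. That is 0.668, 4.07 and 1.44 times the mean. Window density is peaks summed over the summed length, without region peaks, whereas the mean is taken per gene with all peaks kept. The ratios thus compare unlike measures, and no excess or lack against all genes is read from them. Knockdown 2 has the fewest peaks of the knockdown lists.

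**Figure D4:**
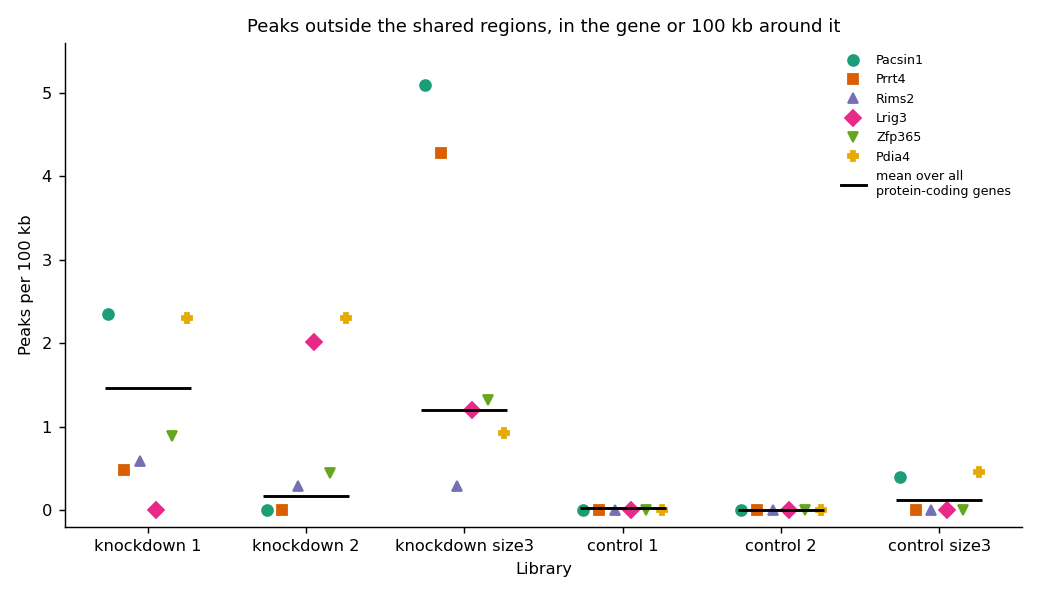
Peaks per 100 kb outside the shared regions in each gene window, by library, with the mean over all protein-coding genes (all peaks kept) as a line. Pacsin1 and Prrt4 stand at 5.09 and 4.28 in knockdown size3, and Lrig3 and Pdia4 at 2.01 and 2.30 in knockdown 2.

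The library with the most further peaks differed between the genes. Pacsin1 and Prrt4 had 13 and 9 further peaks in knockdown size3, more than 99.4% and 95.3% of all genes had in total, and none in knockdown 2. In knockdown 1 they had 6 and 1, and the 6 of Pacsin1 covered 31048 bp, against 15081 bp for its 13 in knockdown size3. Lrig3 and Pdia4 had 5 each in knockdown 2, more than 99.6% of all genes. They had 0 and 5 in knockdown 1 and 3 and 2 in knockdown size3, so Pdia4 had as many in knockdown 1 as in knockdown 2. Rims2 had 4, 2 and 2 and Zfp365 had 2, 1 and 3 in knockdown 1, 2 and size3. The shares of genes given above are the highest among these genes and knockdown libraries. The others ran from 0% (such as Lrig3 in knockdown 1) to 91.3% (Rims2 in knockdown 2), with 19.8% for Prrt4 in knockdown 1. In the member genes themselves lay 6, 2 and 7 of the further peaks of knockdown 1, 2 and size3, and neither control peak. The 5 knockdown 2 peaks near Pdia4 all lay on the side away from the gene, between 5.63 kb from the region and chr6:47761935. They held 8 to 30 reads each, and 2 of them fell in a single knockdown 1 peak at chr6:47770901-47772132.

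Of the 65 further peaks, 13 lay in regions called in more than 1 library. A knockdown size3 peak overlapped 22.2% of the 18 further peaks of knockdown 1, against 9.16% of that whole list, and a knockdown 1 peak overlapped 12.5% of the 32 of knockdown size3, against 11.6% of that list. These are 4 peaks in each direction, and the shares were not tested. Of the shared regions, 4 were called in knockdown 1 and knockdown size3, 1 in knockdown 1 and knockdown 2 and 1 in knockdown size3 and control size3. The Prrt4 window held a second region inside the gene, near the 3′ end, at chr6:29169316-29171864, with 270 reads at a fold of 3.13 in knockdown 1 and 45 reads at a fold of 8.37 in knockdown size3. Pacsin1 had one inside the gene at chr17:27699695-27703097, with 221 reads in knockdown 1 and 22 reads in knockdown size3, and another in Nudt3, which encodes a phosphohydrolase, with 333 reads in knockdown 1 and 28 reads in knockdown size3. The fourth, at chr6:47835311-47836623 near Pdia4, lay on the promoter of the zinc finger gene Zfp398, with 120 reads in knockdown 1 and 40 reads in knockdown size3. The region shared across groups lay in Ilrun, at chr17:27790460-27791416, with 25 reads at a fold of 4.82 in knockdown size3 and 14 reads at a fold of 8.88 in control size3. Of the 16 protein-coding genes with a promoter entry in the 6 windows, 5 had a promoter under a peak of at least 1 library, Pacsin1 and Prrt4 among them, against 22.7% of 17492 genes. The Prrt4 peak is not a further peak but part of the region by which the gene was chosen. Nothing is therefore read from this count.

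Relatives of the members were taken from a list of 20 genes, all of which matched the gene table. A peak in the gene or within 5 kb was present in 16 of 20 in knockdown 1, 2 of 20 in knockdown 2, 11 of 20 in knockdown size3, 0 of 20 in control 1 and control 2 and 2 of 20 in control size3. Of all protein-coding genes, 43.7%, 7.95% and 35.5% had such a peak in knockdown 1, 2 and size3, and 1.38%, 0.315% and 5.49% in control 1, 2 and size3. At least 2 knockdown libraries had a peak at 10 of 20, against 26.1% of all protein-coding genes, and a control library at 2 of 20, against 6.7%. The relatives differ in length from 3.14 kb (Pdia2) to 520 kb (Rims1), and length was not adjusted for.

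Pacsin2, the widely expressed relative of Pacsin1, and Lrig1, a negative regulator of receptor tyrosine kinases, each had peaks of the 3 knockdown libraries, but at different places. In Pacsin2 they held 65 reads in knockdown 1, 10 reads in knockdown 2 and 31 and 34 reads in knockdown size3, and control size3 had a separate peak of 14 reads. In Lrig1 they held 120, 110 and 19 reads in knockdown 1, 10 reads in knockdown 2 and 19 reads in knockdown size3. Overlapping peaks of different libraries were found at 2 relatives only. Rims4 had one at chr2:163857779-163859301, below the gene, with 114 reads in knockdown 1 and 28 reads in knockdown size3. Pdia3, a disulfide isomerase of glycoproteins, had one above its upper end, with 90 reads at a fold of 5.09 in knockdown 1 and 26 reads at a fold of 14.6 in knockdown size3. The other relatives with peaks of 2 knockdown libraries were Rims3, Rimbp2, Lrig2, Pdia5, P4hb and Erp44, where no peaks of different libraries overlapped, and Rimbp2 also had a control size3 peak of 18 reads. No relative had a region called in the 3 knockdown libraries together.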

How the data were processed

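Chromatin immunoprecipitation DNA was sequenced in 12 samples, and 6 peak lists were used. The submitters' processing notes name cutadapt, Bowtie2 and the build GRCm38. MACS 1.4.2, per the file headers, called peaks on uniquely mapped reads of each immunoprecipitate against its own input, unpooled, at a p cutoff of 1e-05 and a band width of 300 bp, with 1 read kept per position. The fragment size in the headers was 209, 129 and 198 bp for knockdown 1, 2 and size3, and 200 bp for every control list. Read counts of a peak, as deposited, exclude duplicates. The deposited score grows with the negative log10 of the p-value. The deposited fold enrichment is a ratio at the summit to the local background. The deposited false discovery rate is in percent, from swapped libraries. Scores and folds are the authors' and serve only within a list.

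Genes came from RefSeq GRCm38.p6. Peaks of all lists were merged where they touched, and a region was named by the protein-coding gene it overlaps or lies nearest to. The members and lists were chosen with earlier results of these data known. Named genes are, by rule, the 6 members, the protein-coding genes overlapping a region or among the 2 nearest, and the relatives; other genes in the windows were named after their values were seen. Windows of 100 kb, peaks overlapping them by 1 bp, pseudocounts of 1 peak and 100 bp and exact permutation tests of 3 against 3 libraries were used (Python 3.11.15, numpy 2.4.6, pandas 2.3.3). With 3 against 3, p cannot go below 0.1. Alternatives were other windows, other pseudocounts (chosen after seeing the data), stricter peaks, depth scaling, a replicate block and each library or window left out. The counting of peaks in windows, the merging, the cover and the exact tests were tested on simulated data or small sets with known answers. Bases under peaks outside promoters were not analysed here.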

Additional observations from a re-analysis of the deposited data

How the results depend on the processing

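The difference in further peaks between knockdown and control libraries was 1.33 to 4.56 on the log2 scale for number and 3.44 to 8.59 for cover over 23 alternatives each (exact permutation p 0.1 to 0.4). With 0, 0 and 2 control peaks its direction had little room to turn, and none of the alternatives could pass 0.05 in this design. Over the whole lists the differences were 4.10 and 3.90. The lowest values came with a score of at least 100, and the highest with the smaller pseudocounts, which were chosen after seeing the data. Leaving out each library in turn gave 3.50 to 4.37 for number and 5.69 to 7.56 for cover, and leaving out each gene window 3.58 to 3.70 and 5.73 to 6.37. With the replicate label as a block (paired within labels 1, 2 and size3) the values were again 3.84 and 6.35, with an exact sign-flip p of 0.25, the smallest that 3 pairs allow. No label says that a shared name marks a shared culture or batch.

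The member regions depended on what counts as shared. Of the 6, 3 remained when at least 1 bp had to be common to the 3 peaks, 2 with 200 bp in common, 2 with summits within 500 bp, and 0 with a score of at least 100 or a false discovery rate of at most 5% in every library, the last because knockdown 2 had a rate of 100% at all 6. With at least 20 reads in each peak 4 remained, and all 6 had no control peak within 10 kb. Knockdown 2 had the fewest reads, 5575205, and a median of 9 reads per peak.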

Other observations

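Some further peaks of the windows coincided with annotated features other than the members. A knockdown size3 peak of 24 reads at a fold of 14.1 (chr10:67792667-67793307) covered the whole of Gm29774, a pseudogene, 92798 bp below Zfp365. A knockdown 1 peak of 88 reads at a fold of 5.68 lay across the lower end of Rtkn2, and a knockdown size3 peak of 22 reads at a fold of 8.25 lay on a promoter of Zfp282, a zinc finger gene near Pdia4. The promoter of Nudt3, near Pacsin1, lay under a knockdown size3 peak of 19 reads at a fold of 6.21. No difference between groups was tested for these peaks, which were picked after their values were seen.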
